A study of Mus musculus with 8 samples.

Results

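The nuclear-encoded subunits of the respiratory chain were followed in mouse liver with and without hepatocyte Arid1a. They were taken as the protein-coding genes whose symbols begin with the names of complex I subunits (Ndufa, Ndufb, Ndufc, Ndufs or Ndufv with a number), complex II (Sdha to Sdhd), complex III (Uqcr), complex IV (Cox4 to Cox8) or complex V (Atp5). This choice by name used no measured value, but it was made with earlier results of these data known. It found 83 genes among the 35638 in the table, 18840 of them protein-coding. Of the 83 genes, 37 fell in complex I, 4 in complex II, 8 in complex III, 17 in complex IV and 17 in complex V. A further 6 genes with matching symbols were not protein-coding and were left out. The names also take in a few relatives: Ndufa4, now placed with complex IV, is counted here under complex I by its symbol, Cox7a2l is a supercomplex factor, and Atp5s and Atp5sl are not subunits of the synthase itself. Ndufab1, Cyc1, Cycs, Atpif1 and Usmg5 carry other names and were followed separately. The subunits encoded by mitochondrial DNA were not analysed here.

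Complexes I to IV pass electrons from NADH and succinate to oxygen, and all of them except complex II move protons across the inner mitochondrial membrane. Complex V, the ATP synthase, uses the returning protons to make ATP. In liver the chain reoxidises the NADH and reduced flavoproteins that fatty acid oxidation and the citrate cycle produce, and the series names fatty acid oxidation among the processes affected by Arid1a loss. Arid1a itself codes for a subunit of the SWI/SNF (BAF) complex, which remodels chromatin.

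RNA was sequenced from frozen liver of 8 mouse samples on a C57/B6 and 129 mix, all at postnatal day 90. The 4 controls carried floxed alleles alone (Arid1a Fl/Fl, here WT), and the 4 knockout samples added the Cre transgene (Arid1a Fl/Fl; Alb-cre, here KO). Alb-cre is driven by the albumin promoter, so cells of the liver other than those of the hepatocyte lineage keep intact Arid1a. The labels do not tie the replicates to separate animals, and p-values then measure only how these samples vary, which may be technical. Arid1a was at 5.16, 8.38, 3.998 and 4.10 FPKM (fragments scaled to transcript length and library size) in the WT samples, given in replicate order here and below. It was at 2.70, 2.86, 3.46 and 2.59 FPKM in the KO samples, each lower than any WT value. A two-sided exact permutation test of the mean difference gave p = 0.0286, the smallest that 70 splits of 4 against 4 allow. Over all genes Arid1a had a limma adjusted p of 0.316.

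Estimated depth ran from 12450000 to 13600000 reads per WT library and from 13750000 to 15350000 per KO library. At the median exon length of the tested subunit genes, 1 read was worth about 0.0430 FPKM. The 10 most abundant genes of a library held 40.9 to 50.4% of its FPKM, and all FPKM summed to 455456 (WT 3) to 621928 (KO 2). Hepatocyte markers (Alb, Apoa1, Ttr, Hnf4a and Cps1) were abundant in all 8 libraries, with summed values of 26905 to 36585 FPKM in WT against 30284 to 43084 FPKM in KO. Macrophage markers summed to 5.19 to 10.1 FPKM in WT against 15.04 to 118 FPKM in KO, and 8 of 8 had a higher mean in KO at an unadjusted limma p under 0.05, although 0 passed after adjustment. The 6 endothelial markers summed to 1.51 to 3.64 FPKM in WT against 4.17 to 13.4 FPKM in KO. The 7 stellate cell markers summed to 1.93 to 6.09 FPKM in WT against 9.14 to 22.4 FPKM in KO, and the 5 cholangiocyte markers to 0.269 to 0.792 and 0.527 to 6.82 FPKM. None of these markers was at 0 in all 8 libraries. The part of other cell types in the values below was not tested. In such bulk samples, fewer cells of a type and less RNA per cell cannot be told apart.

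The summed level of the respiratory chain genes differed between KO and WT liver by less than the spread of the samples. The 83 genes together held 4350, 3866, 3688 and 4582 FPKM in the WT samples and 3252, 4411, 4335 and 5015 FPKM in the KO samples. KO 1 was below every WT library and KO 4 above every WT library, so the WT range lay inside that of KO. The means were 4122 ± 415 FPKM in WT against 4253 ± 733 FPKM in KO (SD, n = 4 each), a mean difference of 3.18% of the WT level. As a share of the FPKM of protein-coding genes, they took 1.79% ± 0.132 in WT against 1.78% ± 0.133 in KO (SD, n = 4 each).

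Single genes were compared with limma on log2(FPKM + 1) over the 11266 genes with a mean of at least 1 FPKM, and p-values were adjusted by Benjamini-Hochberg, with a call at an adjusted p under 0.05. All changes below are KO minus WT on this scale unless stated otherwise. Of the 83 genes 76 entered the test: 36 in complex I, 4 in complex II, 8 in complex III, 12 in complex IV and 16 in complex V. None of the 76 passed the threshold with limma, while 0.763% of all tested genes did (0.408% higher and 0.355% lower in KO). At an unadjusted p under 0.05 there were 2 subunit genes, Cox6b2 higher and Ndufv1 lower, against 9.81% of all tested genes. Cox6b2 entered the test only through its KO values, since its WT mean of 0.900 FPKM was below the limit of 1 FPKM. The same 2 were the only tested subunit genes without overlap between the groups, Cox6b2 with all KO libraries above and Ndufv1 with all below, where 6.23% of all tested genes had no overlap (3.05% with all KO libraries above and 3.18% with all below). Of the 76 changes 43 were positive and 33 negative, with a median of 0.02 beside -0.03 over all tested genes. With each library scaled to an equal sum of FPKM the medians were -0.09 and -0.12, and 23 were positive and 53 negative, so no common direction can be given. The median change was 0.00 in complex I, 0.01 in complex II, -0.02 in complex III, 0.13 in complex IV and 0.14 in complex V.

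The 95% confidence interval of the change lay within a 2-fold range in both directions for 71 of 76 genes, and within a 1.5-fold range for 47. The exceptions to the 2-fold range were Ndufb2, Cox6b2, Cox6c, Atp5f1 and Atp5j. The median SD within groups on the log2 scale was 0.25 for the 76 genes, beside 0.33 for the 3014 tested genes with a mean of at least 10 FPKM.

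**Figure D1:**
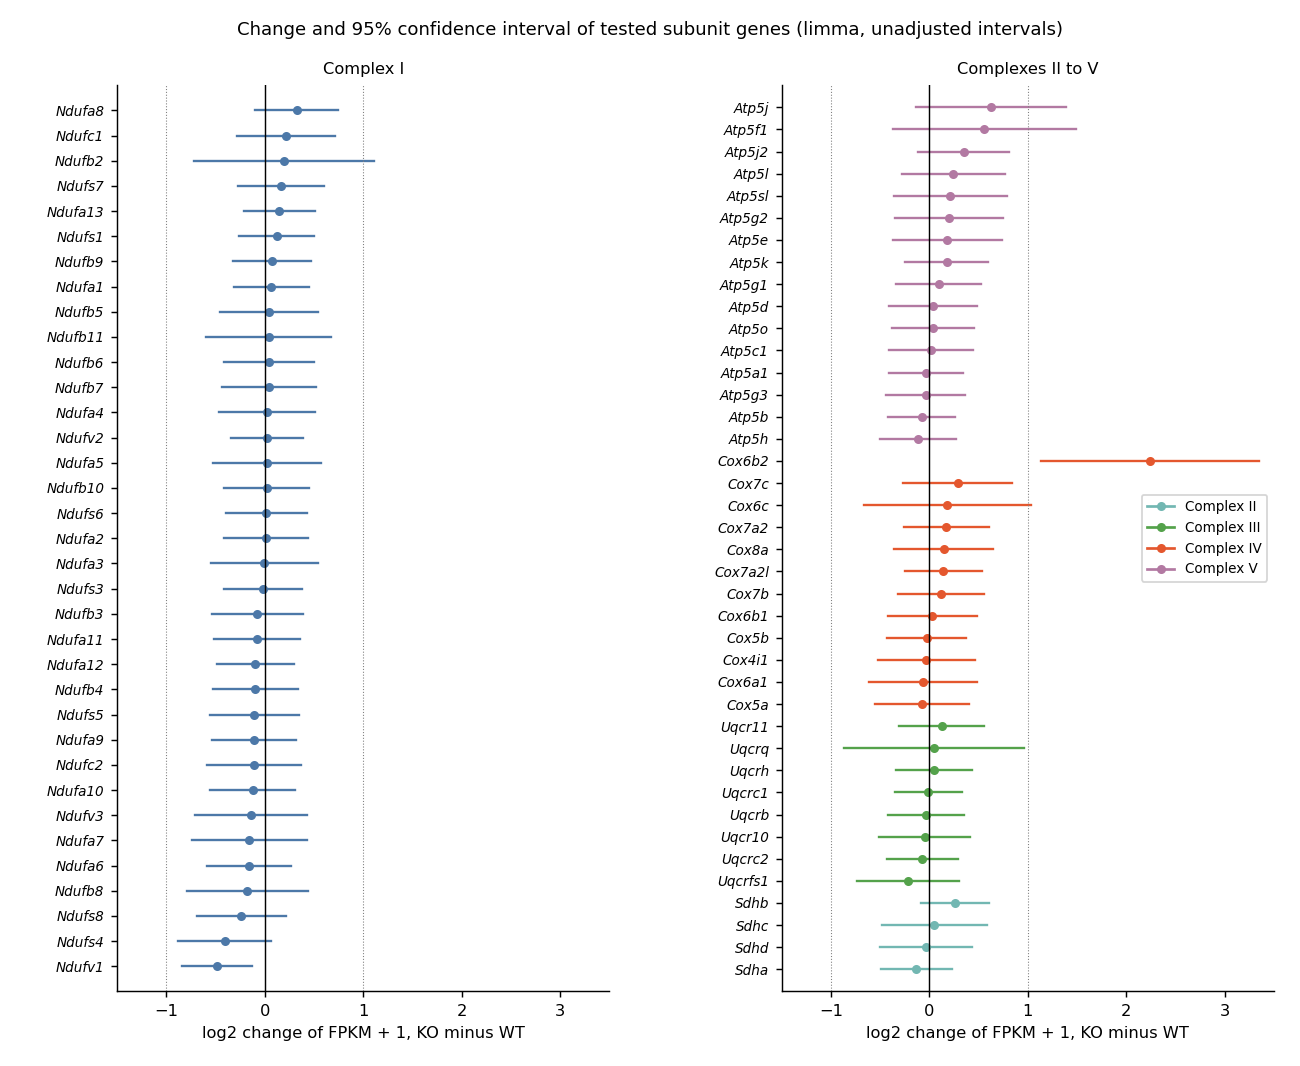
Change of 75 of the 76 tested subunit genes, KO minus WT, in log2(FPKM + 1) on the horizontal axis, with the point at the estimate and the bar at its unadjusted 95% confidence interval from limma (4 libraries per group). Dotted lines stand at 2-fold lower and higher; 2 intervals do not include 0, those of Ndufv1 below it and of Cox6b2 above it.

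Single libraries stood apart for many of the genes. KO 1 was the lowest of the 8 libraries for 42 of the 76 genes (55.3%), whereas it was the lowest for 22.5% of all tested genes. It was the lowest for 19 of 36 genes in complex I, 2 of 4 in complex II, 6 of 8 in complex III, 6 of 12 in complex IV and 9 of 16 in complex V. WT 3 was the lowest for another 20 genes, and KO 4 was the highest for 29 (38.2%, against 19.9% of all tested genes). The mean log2(FPKM + 1) over the 76 genes was 5.40, 5.27, 5.17 and 5.52 in the WT samples and 5.06, 5.50, 5.43 and 5.62 in the KO samples. These differences were smaller relative to other protein-coding genes. As a share of protein-coding FPKM the 83 genes took 1.95, 1.86, 1.68 and 1.69% in the WT samples and 1.62, 1.79, 1.94 and 1.76% in the KO samples, so that KO 4 lay within the WT range and KO 1 just below WT 3. Nor was the low level in KO 1 particular to the subunit genes. KO 1 also had the lowest sum of the 8 libraries for assembly factors (214 FPKM, with WT at 263 to 336 FPKM), proteins of the mitochondrial ribosome (528 FPKM, with WT at 581 to 820 FPKM), citrate cycle genes (278 FPKM, with WT at 354 to 379 FPKM), regulators of respiratory genes, carriers and channels, and genes that feed electrons to ubiquinone. KO 1 was not the lowest for the subunits and partners with other names (179 FPKM, with WT 2 at 170 FPKM). Nor was it for cytosolic ribosomal proteins (4146 FPKM, with WT 3 at 4135 FPKM) or hepatocyte markers (30284 FPKM, with WT 2 at 26905 FPKM). Without KO 1 the median change of the tested genes was 0.13, and 64 of 76 changes were positive. Without WT 3 the median was -0.04, with 29 positive and 47 negative.

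**Figure D2:**
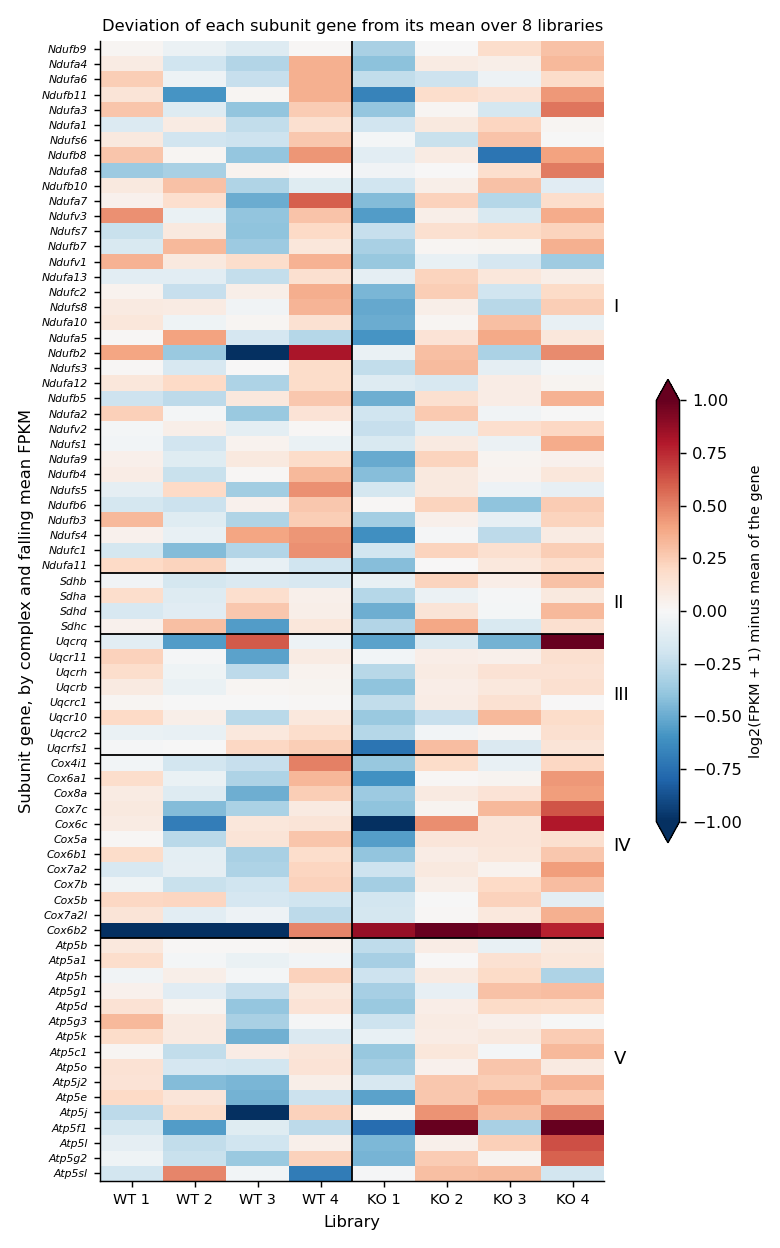
Deviation of log2(FPKM + 1) of 75 of the 76 tested subunit genes (rows, grouped as complexes I to V) from the mean of that gene over the 8 libraries (columns), with red above and blue below the mean and the scale ending at 1 in each direction. The KO 1 column is mostly blue, being the lowest library for 41 of the 75 genes shown, and the KO 4 column mostly red.

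The genes also moved together from library to library. Each was correlated with the mean of the other 75 over the 8 libraries, and the median Pearson correlation was 0.69, while the median over 11190 other tested genes with the mean of the 76 was 0.24. These are descriptions over 8 points, and all genes of a point share its library and depth. Atp5g2 followed the other subunit genes most closely (0.97), and Ndufv1 (0.06) and Atp5sl (-0.29) followed them least. Outside the family, Snx3 (0.971), Rab5c (0.969), Anapc13 (0.965), Ptdss1 (0.965) and Saa4 (0.964) had the profiles most like the mean of the subunit genes.

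Sequences upstream of the genes are shown for the 2 genes without overlap between the groups, for Cox6b1, the sister gene of Cox6b2 that liver uses, and for Sdha, whose region holds a motif searched for. They come from the RefSeq windows of GRCm38.p6, which matched 69 of the 83 genes, and are printed 5′ to 3′ on the strand of the gene, up to the first annotated base of the gene in RefSeq or GENCODE M21. Capitals mark matches to the NRF1 core, the binding motif of the nuclear respiratory factor. The stretches lie at chr19:4012807-4013005 for Ndufv1, chr7:4753095-4753344 for Cox6b2, chr7:30626152-30626364 for Cox6b1 and chr13:74350281-74350490 for Sdha, all on the minus strand.
Ndufv1: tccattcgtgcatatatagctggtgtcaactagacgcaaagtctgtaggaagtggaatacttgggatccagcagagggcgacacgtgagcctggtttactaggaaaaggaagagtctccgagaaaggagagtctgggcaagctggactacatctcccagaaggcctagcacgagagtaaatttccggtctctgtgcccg
Cox6b2: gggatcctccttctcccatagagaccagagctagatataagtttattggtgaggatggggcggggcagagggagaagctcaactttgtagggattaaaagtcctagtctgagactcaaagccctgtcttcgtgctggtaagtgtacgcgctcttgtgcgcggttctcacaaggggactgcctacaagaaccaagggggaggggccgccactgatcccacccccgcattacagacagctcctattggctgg
Cox6b1: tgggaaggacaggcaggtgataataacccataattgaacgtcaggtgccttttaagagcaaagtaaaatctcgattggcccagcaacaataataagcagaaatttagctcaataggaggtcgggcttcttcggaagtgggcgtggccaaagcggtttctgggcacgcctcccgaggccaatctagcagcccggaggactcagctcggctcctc
Sdha: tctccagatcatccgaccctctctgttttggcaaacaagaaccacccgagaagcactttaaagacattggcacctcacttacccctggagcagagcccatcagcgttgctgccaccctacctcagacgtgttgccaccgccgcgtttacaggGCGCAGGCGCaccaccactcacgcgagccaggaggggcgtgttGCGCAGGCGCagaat
Sdha held 2 matches to the NRF1 core, at 98 and 55 bases before the RefSeq start. None of the motifs searched matched in the other 3 stretches, which says only that these letters are not in them. The Cox6b2 stretch also runs into Fam71e2, a gene annotated on the same strand from base 4753226.

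Across the whole windows, from 250 bases before to 50 after a start, 65 tested subunit genes could be searched on both strands. The NRF1 core, the letters in capitals in the Sdha sequence with any base allowed at position 6, was found in 17 of them (26.2%), beside 7.17% of 17492 protein-coding genes. The YY1 core AANATGGC was found in 18 (27.7%, beside 7.46%), 12 of them in complex I. The ETS core CCGGAAGT, which GABPA binds, was found in 5 (7.69%, beside 5.69%), and the cyclic AMP response element TGACGTCA in 4 (6.15%, beside 2.54%). Matches of different motifs overlapped in 0 windows. The median number of CpG dinucleotides per window was 19 in the subunit genes and 15 in protein-coding genes. A match is a description of sequence, and no binding was measured.

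Complex I takes electrons from NADH and hands them to ubiquinone. Among its conserved core subunits, Ndufv1, Ndufv2 and Ndufs1 belong to the NADH-oxidising tip, and Ndufs3, Ndufs7 and Ndufs8 to the part that leads the electrons to ubiquinone. The 37 genes summed to 1205 ± 156 FPKM in WT against 1191 ± 182 FPKM in KO (SD, n = 4 each). Of the 36 tested genes 18 had a positive and 18 a negative change, and 0 passed.

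Ndufv1 (ENSMUSG00000037916, chromosome 19, 4007384 to 4012806, minus strand, GRCm38) encodes the subunit that binds NADH and the flavin mononucleotide. It was at 36.4, 30.5, 32.3 and 36.3 FPKM in the WT samples and at 21.7, 26.9, 25.2 and 22.0 FPKM in the KO samples. All KO values were lower than all WT values. The means were 33.9 ± 2.99 and 23.9 ± 2.53 FPKM (SD, n = 4 each), so the KO mean was 70.7% of the WT mean. The change was -0.49 ± 0.16 (SE), with a 95% interval from -0.84 to -0.13, an unadjusted limma p of 0.0120 and an adjusted p of 0.289. The adjusted p ran from 0.187 to 0.504 over the alternative settings, so Ndufv1 passed in none of them. Relative to the mean FPKM of the other 5 core subunits named above, Ndufv1 stood at 158, 128, 148 and 136% in the WT samples. It stood at 111, 104, 105.3 and 79.7% in the KO samples. This ratio uses the same Ndufv1 values, so its lack of overlap is not a separate result. The group means of this ratio were 143% ± 13.2 and 100.02% ± 13.9 (SD, n = 4 each). No annotated gene overlaps Ndufv1.

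The other 5 core subunits named had overlapping groups. Ndufv2, an iron-sulfur partner of Ndufv1, was at 20.0 ± 0.963 FPKM in WT against 20.5 ± 3.09 FPKM in KO, and Ndufs1, the largest iron-sulfur subunit, at 17.2 ± 1.21 and 18.99 ± 3.29 FPKM (SD, n = 4 each). Their changes were 0.02 and 0.12. Ndufs8 had a change of -0.24 (adjusted p = 0.817 with limma), and KO 1, at 17.9 FPKM, was its lowest library. Ndufs7 had a change of 0.17, with 28.1 FPKM in KO 1 and 37.0 to 38.8 FPKM in the other KO libraries. Over the 6 core genes named the median change was 0.00, and over 29 other tested genes counted under complex I it was 0.01.

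Among the accessory subunits, Ndufs4, which stabilises the junction of the NADH-oxidising tip, was at 13.4, 12.3, 17.4 and 17.9 FPKM in WT and at 8.09, 12.8, 10.6 and 13.7 FPKM in KO. The lowest values were in KO, and the groups overlapped. Its change was -0.41 ± 0.21 (SE; 95% interval -0.88 to 0.07; adjusted p = 0.601 with limma). Ndufa8, a subunit facing the intermembrane space, was at 28.3, 29.2, 37.7 and 36.9 FPKM in WT and at 35.9, 36.8, 41.4 and 53.1 FPKM in KO. Only KO 3 and KO 4 lay above all WT libraries, and the change was 0.33 ± 0.19 (SE; 95% interval -0.10 to 0.75; adjusted p = 0.654 with limma). Ndufb9, the most abundant gene of the complex, was at 108 ± 5.12 FPKM in WT against 115 ± 20.8 FPKM in KO (SD, n = 4 each). The tested gene with the lowest mean, Ndufa11, was at 4.34 FPKM over the 8 libraries. Ndufb2 ranged among the control libraries from 8.04 FPKM in WT 3 to 36.4 FPKM in WT 4. The isoform gene Ndufa4l2 was below the limit for testing, at 0.0725 to 0.687 FPKM over the 8 libraries.

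**Figure D3:**
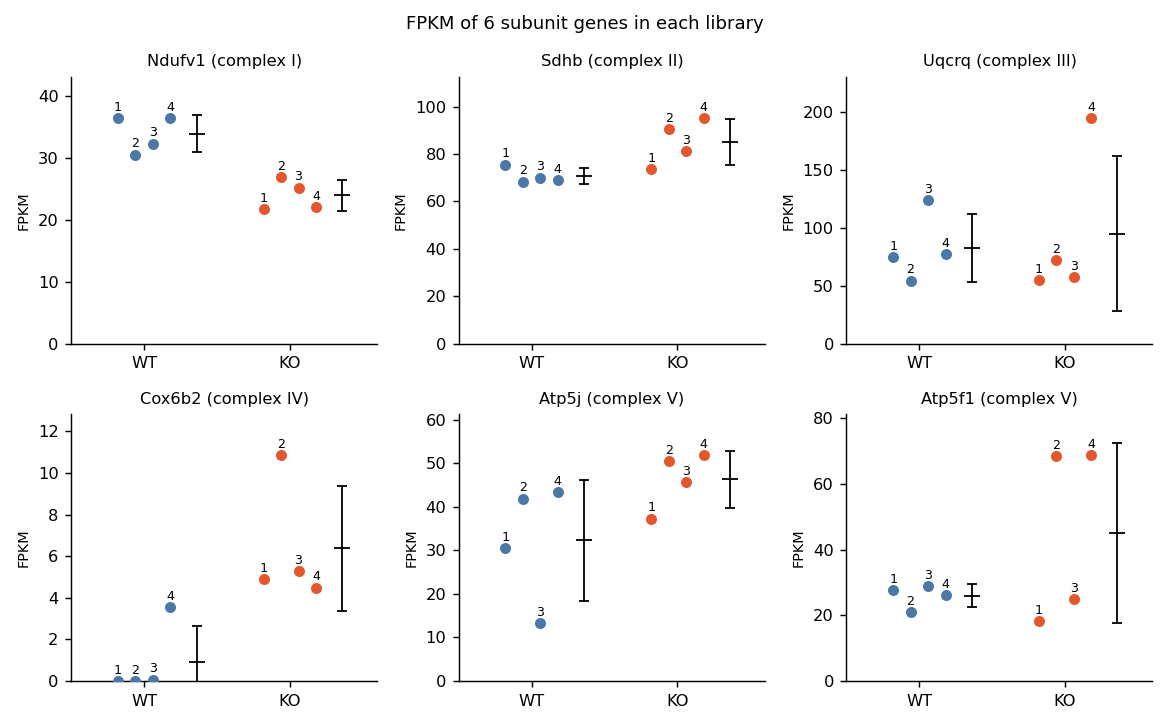
FPKM of Ndufv1, Sdhb, Uqcrq, Cox6b2, Atp5j and Atp5f1 in each library (vertical axes, from 0), with points numbered by replicate and the black bar at the mean with its SD, the lower end for Cox6b2 in WT being hidden below 0. Ndufv1 and Cox6b2 show no overlap between the groups, and the high points of Uqcrq and Atp5f1 are 1 and 2 KO libraries.

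Complex II oxidises succinate in the citrate cycle and is built from 4 nuclear-encoded subunits. Together they were at 199 ± 8.9995 FPKM in WT against 207 ± 28.6 FPKM in KO (SD, n = 4 each). Sdhb, the iron-sulfur subunit, was at 75.5, 68.4, 69.97 and 69.1 FPKM in WT and at 73.5, 90.6, 81.1 and 95.3 FPKM in KO. KO 1 lay within the WT range and the other 3 KO libraries above it. The change was 0.26 ± 0.15 (SE; 95% interval -0.09 to 0.60; adjusted p = 0.670 with limma). Sdha, the flavoprotein that oxidises succinate, had a change of the other sign, -0.13 ± 0.16 (SE), from 70.1 ± 6.90 FPKM in WT to 63.9 ± 7.03 FPKM in KO (SD, n = 4 each). The membrane anchors Sdhc and Sdhd were at 13.7 and 44.0 FPKM in WT and at 14.1 and 43.6 FPKM in KO.

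Complex III passes electrons from ubiquinol to cytochrome c. Its 8 genes were all tested, with 3 positive and 5 negative changes and sums of 506 ± 27.5 FPKM in WT against 517 ± 107 FPKM in KO (SD, n = 4 each). The wider spread in KO came with KO 1 at 397 FPKM and KO 4 at 657 FPKM. Uqcrfs1, the Rieske iron-sulfur protein, was at 41.5, 41.5, 48.3 and 49.6 FPKM in WT and at 24.8, 51.8, 37.7 and 45.6 FPKM in KO. KO 2 was the highest and KO 1 the lowest of all libraries, and the change was -0.22 ± 0.23 (SE; adjusted p = 0.870 with limma). Uqcrc1, a core protein, was at 58.0 ± 0.452 FPKM in WT against 57.9 ± 6.79 FPKM in KO, and its partner Uqcrc2 at 46.7 ± 4.16 and 44.5 ± 5.598 FPKM (SD, n = 4 each). Uqcr11, a small subunit, was at 81.4 ± 17.4 FPKM in WT against 87.2 ± 4.80 FPKM in KO.

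Uqcrq, a small subunit with the highest mean of complex III, had its highest values in single libraries. It was at 74.7, 54.3, 123 and 77.4 FPKM in WT and at 55.0, 72.2, 57.5 and 195 FPKM in KO. WT 3 and KO 4 stood above the rest and set its place in that order, since Uqcr11 was higher than Uqcrq in each of the other 6 libraries. The change of 0.05 (95% interval -0.86 to 0.96) became -0.36 without KO 4 (adjusted p = 0.744 with limma).

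Complex IV, cytochrome c oxidase, reduces oxygen to water, and several of its nuclear-encoded subunits exist as pairs with a common form and a form of muscle, lung or testis. The 17 genes summed to 947 ± 155 FPKM in WT against 1013 ± 237 FPKM in KO (SD, n = 4 each). Of the 12 tested genes 8 had a positive and 4 a negative change, and 0 passed. The pairs were almost wholly of the common form. Cox4i1 gave 100% of the COX4 signal in WT and 99.96% ± 0.0544 in KO, and Cox7a2 gave 98.7% ± 0.883 and 98.6% ± 1.48 of that of COX7A (SD, n = 4 each). Cox6a2 and Cox7b2 were listed at 0 in all 8 libraries, Cox8b at 0 in all except WT 1 (0.631 FPKM) and Cox4i2 at 0 in all except KO 2 and KO 3 (0.0822 and 0.188 FPKM). The muscle form Cox7a1 was at 0.119 to 1.44 FPKM. Muscle markers summed to 0.346 to 0.595 FPKM over the 8 libraries, with Actc1, Myh7 and Myl2 at 0 throughout.

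Cox6b2 was the exception among the pairs. Cox6b2 (ENSMUSG00000051811, chromosome 7, 4751792 to 4753094, minus strand, GRCm38) encodes the testis form of subunit VIb, which faces the cytochrome c side of the enzyme, and Cox6b1 encodes the common form. Cox6b2 was listed at 0 in WT 1 and WT 2, was at 0.0675 FPKM in WT 3 and at 3.53 FPKM in WT 4, and was at 4.88, 10.9, 5.29 and 4.49 FPKM in the KO samples. Every KO library lay above every WT library, and WT 4 stood near the KO range. At the exon length of Cox6b2, 1 read was worth about 0.0658 FPKM, so the value in WT 3 was about that of 1 read. The means were 0.900 ± 1.75 FPKM in WT against 6.38 ± 3.004 FPKM in KO (SD, n = 4 each). The change was 2.24 ± 0.49 (SE; 95% interval 1.14 to 3.34), with an unadjusted limma p of 0.00118 and an adjusted p of 0.0955, so it did not pass. The adjusted p ran from 0.00688 to 0.230 over the alternative settings that tested it, and Cox6b2 passed in 2 of them, without WT 4 (0.00688) and with weights for libraries (0.0221).

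Even so, Cox6b2 remained the minor form. It made up 1.19% ± 2.29 of the COX6B signal in WT against 8.86% ± 3.62 in KO (SD, n = 4 each), with 13.8% in KO 2 as the highest share. Cox6b1 was at 64.4 ± 10.7 FPKM in WT against 66.0 ± 12.3 FPKM in KO (change 0.03, and -0.08 with equal sums). Fam71e2, upstream of Cox6b2 on the same strand, was listed at 0 in all libraries except KO 2 (0.0951 FPKM). Kmt5c, another neighbour of Cox6b2, lies on the other strand and does not overlap it. Kmt5c was at 1.84, 3.07, 2.29 and 4.20 FPKM in WT and at 6.55, 3.63, 6.15 and 2.49 FPKM in KO. KO 2, the library with the highest Cox6b2, had the lowest macrophage marker sum of the KO libraries (15.04 FPKM) and the lowest endothelial one (4.17 FPKM). The stellate marker sums of the KO libraries were 22.4, 12.6, 9.14 and 16.6 FPKM, so KO 2 lay below KO 1 and KO 4. WT 4, with the highest Cox6b2 in WT, had the highest WT stellate sum (6.09 FPKM, with WT 3 at 5.63 FPKM). The part of these cells in the Cox6b2 values was not tested.

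The common subunits of complex IV were among the most abundant respiratory genes. Cox4i1, the regulatory subunit that binds ATP, was at 176 ± 45.1 FPKM in WT against 171 ± 31.1 FPKM in KO, and Cox6a1 at 158 ± 30.3 and 153 ± 43.4 FPKM (SD, n = 4 each). Cox8a, the smallest subunit, was at 136 ± 29.0 and 150 ± 32.3 FPKM. Cox7c was at 118, 81.2, 88.0 and 117 FPKM in WT and at 82.8, 112, 138 and 170 FPKM in KO. KO 3 and KO 4 lay above all WT libraries and KO 1 near the lowest, and the change was 0.29 ± 0.25 (SE; adjusted p = 0.821 with limma). Cox7a2 and Cox7b had changes of 0.17 and 0.11 (adjusted p = 0.875 and 0.932 with limma). Cox6c ranged from 48.8 FPKM in KO 1 to 176 FPKM in KO 4. Cox5a was at 43.5 FPKM in KO 1 and at 69.97 to 71.9 FPKM in the other KO libraries.

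**Figure D4:**
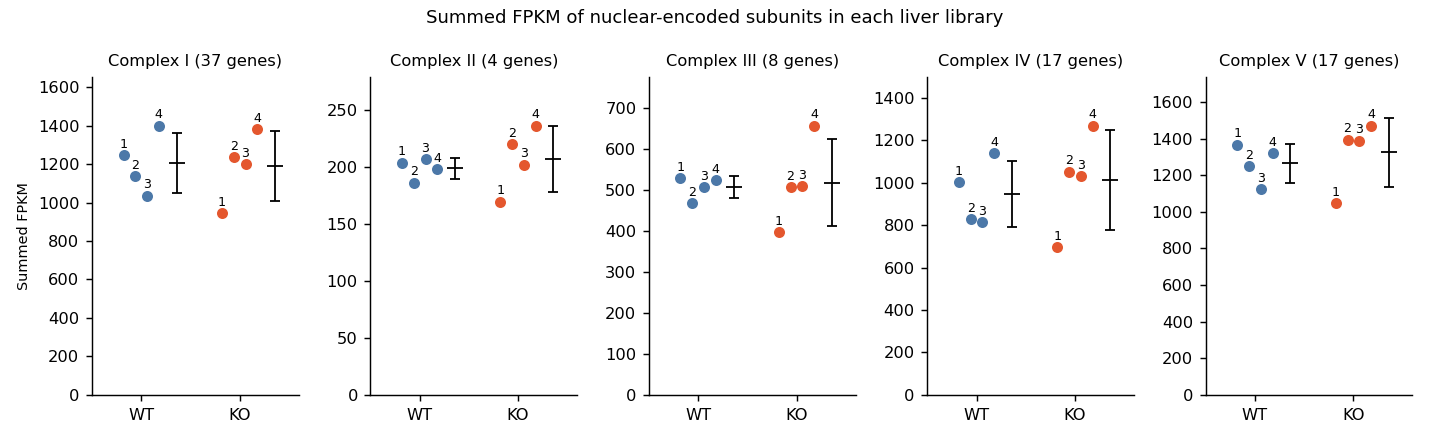
Summed FPKM of all genes of complexes I to V (a panel each, vertical axes from 0) in each WT and KO library, with points numbered by replicate and the black bar at the mean with its SD. KO 1 is the lowest KO library and KO 4 the highest in every panel, and the WT points lie between them or close to them.

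Complex V joins a catalytic head to a rotating ring of c subunits and a peripheral stalk. Its 17 genes summed to 1265 ± 106 FPKM in WT against 1325 ± 190 FPKM in KO (SD, n = 4 each), and of the 16 tested genes 12 had a positive and 4 a negative change, with 0 past the threshold. Atp5b, the catalytic beta subunit and the most abundant of all 83 genes, was at 270, 253, 253 and 257 FPKM in WT and at 210, 265, 239 and 268 FPKM in KO. KO 1 and KO 3 lay below the WT range, and the change was -0.08 ± 0.15 (SE; 95% interval -0.42 to 0.26; adjusted p = 0.941 with limma). The alpha subunit Atp5a1 was at 166 ± 12.8 FPKM in WT against 164 ± 23.7 FPKM in KO (SD, n = 4 each). The c subunit comes from 3 genes that encode the same mature protein. Atp5g1, Atp5g2 and Atp5g3 made up 44.9, 13.1 and 42.0% of its signal in WT and 46.1, 14.6 and 39.2% in KO. The order of the 3 within each library was not fixed: Atp5g3 led in WT 1 and WT 2, and Atp5g1 led in the other 6 libraries.

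The largest positive changes in complex V were in stalk subunits, and they rested on few libraries. Atp5j, coupling factor 6 of the peripheral stalk, was at 30.5, 41.9, 13.4 and 43.5 FPKM in WT and at 37.3, 50.6, 45.7 and 51.9 FPKM in KO. WT 3 was the lowest library, and KO 1 lay inside the WT range. The change was 0.62 ± 0.34 (SE; 95% interval -0.14 to 1.39; adjusted p = 0.6201 with limma). Atp5j overlaps Gabpa on the opposite strand, and Gabpa was at 5.90, 8.42, 13.3 and 18.5 FPKM in WT and at 4.68, 4.96, 10.3 and 10.7 FPKM in KO. Since the use of strand in the counting is not given in the sources used here, reads of such overlapping genes may not be told apart. Atp5f1, the b subunit of the peripheral stalk, was at 27.7, 20.99, 28.9 and 26.05 FPKM in WT and at 18.2, 68.4, 24.9 and 68.8 FPKM in KO. KO 2 and KO 4 stood above all other libraries, KO 1 and KO 3 did not, and the change was 0.56 ± 0.41 (SE; adjusted p = 0.773 with limma). Wdr77 and Gm42890 overlap Atp5f1 on the other strand. Wdr77 was at 6.07, 2.10, 3.12 and 5.11 FPKM in WT and at 2.08, 2.74, 2.87 and 3.86 FPKM in KO, and Gm42890 at 1.59 to 3.60 FPKM over the 8 libraries. Atp5j2, subunit f of the membrane part, was at 45.9, 30.6, 30.1 and 43.4 FPKM in WT and at 37.2, 50.6, 49.7 and 53.1 FPKM in KO. All KO libraries except KO 1 lay above the WT range, and the change was 0.35 ± 0.21 (SE; adjusted p = 0.661 with limma). Atp5s, at 0.248 to 1.02 FPKM, was not tested.

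Other gene groups tied to respiration, and cytosolic ribosomal proteins as another family of short abundant messages, were read from the same fit. They also gave no gene past the threshold in limma, in 242 tested genes of 8 lists, 82 of them cytosolic ribosomal proteins. Of 42 assembly factors 18 had a positive and 24 a negative change (median -0.03), with 1 gene in each direction at an unadjusted p under 0.05. At that level 4.99% of all tested genes were higher and 4.82% lower in KO. Acad9, an assembly factor of complex I, had the smallest p. It was at 8.85, 7.83, 8.07 and 7.42 FPKM in WT and at 3.32, 8.65, 3.11 and 3.57 FPKM in KO, with KO 2 at the WT level, and had an adjusted p of 0.351 with limma. Without KO 2 its adjusted p was 0.0289. Of 77 proteins of the mitochondrial ribosome 35 had a positive and 42 a negative change (median -0.06), and 2 were higher and 0 lower at an unadjusted p under 0.05. Mrpl13 was at 0.803 to 1.41 FPKM in WT and at 0.650, 5.68, 4.47 and 4.46 FPKM in KO, with KO 1 below all WT libraries (adjusted p = 0.377 with limma, and 0.0147 without KO 1).

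Of the 10 tested regulators of respiratory genes 3 had a positive and 7 a negative change (median -0.12). At an unadjusted limma p under 0.05, 2 were higher and 0 lower. Ppargc1b, a coactivator of mitochondrial genes, was at 2.62, 1.87, 2.25 and 0.761 FPKM in WT and at 2.45, 9.64, 6.77 and 3.41 FPKM in KO. KO 1 lay in the WT range, and the change was 1.10 ± 0.37 (SE; adjusted p = 0.324 with limma). Esrra, its nuclear receptor partner, was at 5.92, 5.68, 6.23 and 6.27 FPKM in WT and at 8.85, 8.79, 10.4 and 7.09 FPKM in KO. All KO libraries lay above all WT libraries, and the change was 0.47 ± 0.16 (SE; adjusted p = 0.345 with limma). Ppargc1a was at 2.61 ± 0.612 FPKM in WT against 2.50 ± 0.550 FPKM in KO (SD, n = 4 each). Gabpa and Yy1, whose motifs were searched above, had changes of -0.50 and -0.36 (adjusted p = 0.773 and 0.643 with limma). The regulator Nrf1, at 0.295 to 0.409 FPKM in WT and 0.202 to 0.266 FPKM in KO, was not tested. All its KO values lay below all its WT values, at levels under the limit of 1 FPKM.

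Of 13 citrate cycle genes 4 had a positive and 9 a negative change (median -0.06). Suclg1, a subunit of succinyl-CoA synthetase, had the smallest p and was at 44.9, 37.2, 48.1 and 47.2 FPKM in WT and at 28.6, 41.7, 29.6 and 31.8 FPKM in KO (adjusted p = 0.470 with limma). Of 7 genes that feed electrons to ubiquinone beside complexes I and II, 2 had a positive and 5 a negative change (median -0.31), led by Etfb, a subunit of the electron transfer flavoprotein (115 ± 16.4 FPKM in WT against 87.0 ± 12.6 FPKM in KO, SD, n = 4 each, adjusted p = 0.522 with limma). Of the 6 tested carriers and channels, Ucp2, an uncoupling protein homologue, had the smallest p, at 0.267 to 0.363 FPKM in WT and at 2.33, 0.701, 3.997 and 1.42 FPKM in KO (change 1.14 ± 0.30 SE, adjusted p = 0.158 with limma). Ucp2 entered the test only through its KO values, all WT values being below the limit of 1 FPKM. Among the KO libraries KO 3 was the highest and KO 2 the lowest for Ucp2 and for the macrophage, endothelial and cholangiocyte marker sums. KO 1 was above KO 4 for Ucp2 but below it for the macrophage sum (67.9 and 82.5 FPKM). The stellate sum was lowest in KO 3. The part of other cells in the Ucp2 values was not tested. The 5 subunits and partners with other names had 4 positive changes and 1 negative (median 0.11), with Cyc1 at 43.6 ± 5.64 and 43.7 ± 4.59 FPKM and Atpif1, the inhibitor of the ATP synthase, at 16.5 ± 5.13 and 21.6 ± 4.22 FPKM in WT and KO (SD, n = 4 each). The 82 cytosolic ribosomal proteins had a median change of 0.09, with 55 positive and 27 negative, and Rps27a had the smallest p (adjusted p = 0.577 with limma).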

How the data were processed

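The authors deposited 1 table of FPKM values for 8 liver libraries, with Ensembl IDs, symbols and biotypes. Per the labels' protocols, total RNA was taken up in Trizol, purified on a Qiagen miRNeasy kit and turned into libraries by Nugen protocols. The submitters' processing notes list mm10, TopHat and edgeR. Not given in the sources used here are their versions and roles, the program behind the FPKM values, the annotation and whether strand was used. Since FPKM is relative to library size, a few abundant transcripts lower all other values.

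Columns were matched to samples by name, the columns headed LKO to the samples titled KO. The fit used limma 3.58.1 in R 4.3.3, two-sided with an intensity trend, on log2(FPKM + 1) of genes with a mean of at least 1 FPKM, without further scaling. A change on this scale understates that of low genes. The limit was set on the mean over both groups, so a gene low in 1 group could enter the test through the other. No test written for counts was used. Depth was estimated from how low values step among genes that have 1 transcript of at least 400 nt. The depth between 8000000 and 20000000 reads that put the most low values near whole reads was taken. With it 47.5 to 51.1% lay within 0.1 of a whole read. At a fixed depth 20% would by chance, a share that choosing the best depth can raise. No counts were rebuilt. Coordinates come from GENCODE M21 on GRCm38 (mm10), which matched 99.39% of the IDs, and upstream sequences from RefSeq GRCm38.p6. Plots used matplotlib 3.10.9.

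The members and lists were chosen with earlier results of these data known. Genes named by rule were Arid1a, any member past the threshold, in each complex the 3 with the smallest p and the most abundant, the isoform pairs, the c subunit genes, in each other list the gene with the smallest p, and the 5 genes with the most similar profile. The values of 1 tested gene are not reported here singly, although it is counted in the sums and counts. Other genes were chosen after their values were seen. Alternatives were other pseudocounts (0.1 and 5 FPKM) and filters (none, and 5 FPKM), 3 other scalings, no trend, weights for libraries, a block by replicate number, and the omission of each library in turn.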

Additional observations from a re-analysis of the deposited data

Results flagged for a closer look

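Each tested subunit gene and each sum per complex was examined for a library far from the other 3 of its group (152 groups of 4 for genes and 12 for sums). A library was listed where its gap to the nearest other over the range of the group exceeded Dixon's critical value at 95%. Chance gives about 1 such group in 20, and 8 were found. In KO 1 the values were low for Ndufb4 (12.1 FPKM, others 17.0 to 18.1 FPKM), Ndufs7 (28.1 FPKM, others 37.0 to 38.8 FPKM), Cox5a (43.5 FPKM, others 69.97 to 71.9 FPKM) and Atp5e (26.9 FPKM, others 47.5 to 51.4 FPKM). Uqcrq was high in KO 4 (194.7 FPKM, others 55.0 to 72.2 FPKM), and Cox6c was low in WT 2 (61.9 FPKM, others 107 to 110.3 FPKM). Cox6b2 stood out in both groups, at 3.53 FPKM in WT 4 (others 0 to 0.0675 FPKM) and at 10.9 FPKM in KO 2 (others 4.49 to 5.29 FPKM).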

How the results depend on the processing

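The count of genes past the threshold, 86 in all, was 54 with a pseudocount of 5 FPKM (27 higher and 27 lower), 27 with a minimum of 5 FPKM (14 and 13) and 24 with the replicate block (16 and 8). It ran from 35 (without KO 3) to 136 (without KO 2) when 1 library was left out. Subunit genes past the threshold numbered 0, except 1, Cox6b2, with weights for libraries, and 0 to 1 when a library was left out (1 without WT 4). In the other lists the count of 0 became 1 without a filter (Slc25a4) and 0 to 2 when a library was left out (Acad9 and Ucp2 without KO 2, Mrpl13 without KO 1). The difference in Arid1a, -2.51 FPKM, ran from -2.98 to -1.52 FPKM, with p = 0.0857 by exact permutation when any 1 KO library was left out. Of 642 values of 36 single genes over the alternatives, 5 newly passed, 23 changed sign and 614 did neither. None of these genes passed at the settings of the report, so no call could be lost. With equal sums the signs turned for Atp5g1 (-0.016), Cox6b1 (-0.082), Ndufb9 (-0.037), Sdhc (-0.053) and Uqcrq (-0.063), and with weights for Cox4i1 (0.050) and Uqcrq (-0.028). Leaving out 1 library gave ranges across 0 for Atp5g3 (-0.15 to 0.061), Cox4i1 (-0.11 to 0.13), Cox6a1 (-0.22 to 0.12), Cox6b1 (-0.073 to 0.17), Ndufb9 (-0.011 to 0.20), Sdhc (-0.13 to 0.16), Uqcr11 (-0.035 to 0.22), Uqcrc2 (-0.13 to 0.011) and Uqcrq (-0.36 to 0.26). The cause was not tested. The deviations of same-numbered WT and KO libraries correlated at 0.10, -0.07, 0.02 and 0.25. WT 1, WT 3 and WT 4 each correlated best with the KO library of the same number, and WT 2 with KO 1 (0.13). Whether same-numbered libraries were handled together cannot be told from these values. The block was kept as an alternative, and it changed no call of a subunit gene.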
